A study of Mus musculus with 48 samples.

Results

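Wild-type C57BL/6J (C57) mice with ACF surgery were compared with wild-type C57 mice with sham surgery through the messenger RNA of their cardiomyocytes. ACF is the surgery of a volume overload study, and the abbreviation commonly stands for aortocaval fistula, a shunt that returns arterial blood to the veins and fills the ventricles beyond their normal volume. The members were chosen by title and surgery label: 3 ACF libraries (465, 489 and 490) and 3 sham libraries (464, 467 and 491), 6 of the 48 libraries of the series, and all were taken on day 3. Both groups, labelled WT C57B6J, carried C57 nuclear DNA and C57 mitochondrial DNA, with no transgene or exchanged genome named, and the age of the mice is not given in the sources used here. The other libraries came from wild-type C3H/HeN mice and from mitochondrial-nuclear exchange (MNX) mice, in which each strain's nuclear genome was combined with the other strain's mitochondria. Cells were freed by collagenase perfusion, with the atria and the right ventricle taken off, and the labels state that preparations were used only above a set purity. The labels number the libraries but do not say that each came from a separate animal. The p-values therefore measure a spread between libraries, which may be technical. In the main tests of single genes this spread came from all groups titled with a surgery, not from these 6 libraries alone.

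Volume overload stretches the ventricular wall at filling. Cardiomyocytes under load are known to turn on immediate early transcription factors, to release natriuretic peptides and to re-express fetal contractile isoforms, among them the slow beta-myosin heavy chain encoded by Myh7, which in the adult mouse ventricle is nearly replaced by the fast alpha chain encoded by Myh6. Interferon response genes encode antiviral and antigen-presentation proteins and have a low basal level in many resting cells.

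Library 489 stood apart. Haemoglobin transcripts made up 5.18% of its counts and at most 0.00373% of the counts of any other of the 6 libraries. On a log2 scale of counts per M counts (CPM, with M for mega), the mean of 15 cardiomyocyte markers was 11.12, 8.33 and 11.31 in ACF libraries 465, 489 and 490, against 11.32, 11.24 and 10.86 in sham libraries 464, 467 and 491, and no cardiomyocyte marker was at 0 counts in any of the 6. Every value below is given in this order of libraries. All 15 of the cardiomyocyte markers were lowest in 489, while all 9 erythrocyte markers, all 15 macrophage markers, 14 of 15 fibroblast markers and all 10 epicardial markers were highest there. The dissection removed the atria. Markers of the atria and the conduction system summed to 51.1, 118 and 62.3 CPM in the ACF libraries, against 50.4, 73.0 and 44.3 CPM in the sham libraries. Nppa, taken up below among the stress genes, gave 17.0, 60.2 and 33.0 CPM of the ACF sums. It gave 19.2, 40.02 and 11.5 CPM of the sham sums. Counts and fold changes are therefore given with all 6 libraries and with the 5 that remain without 489. The 6 libraries held 17.19 to 20.77 M counts, which limits the precision of the rarer transcripts. Scaling the libraries to the cardiomyocyte markers in place of TMM moved the median log2 fold change of all genes. It became 1.496 with 489 and -0.0975 without it. Signs near 0 therefore depend on the scaling, and with 489 so do the signs of some larger differences. With 489, Rgs4 went from -1.24 to 0.26 and Slc40a1 from -0.96 to 0.22.

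**Figure D1:**
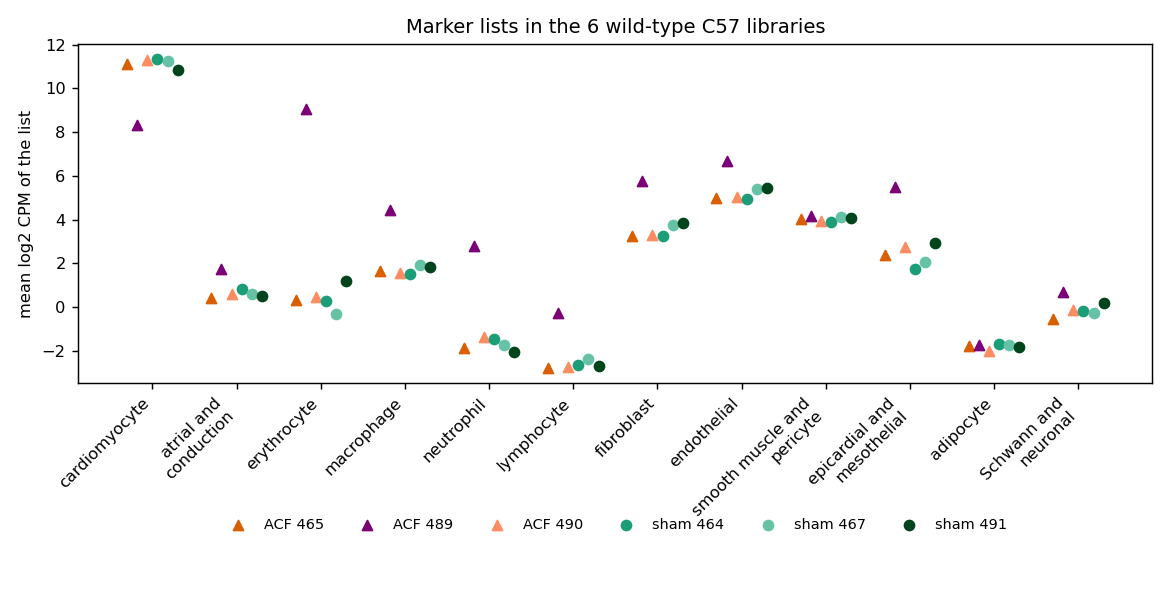
Mean log2 CPM of 12 lists of cell-type markers in each of the 6 wild-type C57 libraries, with ACF libraries as triangles and sham libraries as circles. ACF library 489 is lowest for cardiomyocyte markers (8.33, against 10.86 to 11.32 in the other 5) and highest for erythrocyte markers (9.04, against at most 1.201).

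The first question was which genes differed between ACF and sham. Myh7 was higher in every ACF library than in any sham library. By edgeR it passed the threshold of an adjusted p below 0.05 without 489 but not with all 6 libraries. No other gene passed either way. Immediate early genes, such as Nr4a3, Nr4a1 and Junb, had the highest median of 32 gene lists without 489 (0.72 on the log2 scale), and interferon response genes had the lowest (-0.70), with no member of either list called. Of the genes with an unadjusted p below 0.05 in the 6 libraries, most did not keep it without 489. All libraries with a surgery in their titles, 24 in 8 groups, entered 1 model. With all 6 C57 libraries edgeR's quasi-likelihood test called 0 of 13440 genes after Benjamini-Hochberg adjustment, and 2030 (15.1%) had an unadjusted p below 0.05, 1613 higher (12.0%) and 417 lower (3.10%) in ACF. Without 489 it called 1 of 13544 genes (0.00738%), and 551 (4.07%) had an unadjusted p below 0.05, 339 higher (2.50%) and 212 lower (1.57%). Of 13435 genes tested both ways, 2027 had an unadjusted p below 0.05 with 489 and 544 without it. Both ways, 253 genes had such a p, 247 of them with the same sign. A further 1774 genes had such a p only with 489, and 1443 of these were higher. Other tools called more: DESeq2 called 176 genes with 489, Myh7 among them, and 5 without (Myh7, Lmna, Nr4a3, Kifc3 and AK172683, the last 2 named after their values were seen). A limma fit with sample quality weights gave 489 a weight of 0.0366 and sham 491 a weight of 0.349. The weights of the others of the 6 libraries ran from 1.226 to 2.628. This fit called 96 genes with 489 and all of these 96 among 187 without it. At its weight 489 had little part in the fit, so weighted limma calls with and without 489, here and below, are not separate tests. They also rest less on sham 491 than on the other sham libraries. The edgeR count with 489 was also set by single libraries: it was 874 without ACF 465 and 688 without ACF 490. In what follows, a gene is called by edgeR unless another tool is named.

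Myh7 was measured at 298, 113 and 1364 CPM in the ACF libraries, against 21.7, 17.4 and 71.6 CPM in the sham libraries. The lowest ACF library stood above the highest sham library, although the ACF values ranged over more than the sham values did and sham 491 stood above the other sham libraries. The log2 fold change without 489 was 4.52 ± 0.666 (SE, 2 ACF and 3 sham libraries, edgeR adjusted p = 0.019). With all 6 libraries it was 4.01 ± 0.773 (adjusted p = 0.134). Each SE rests on the spread within groups over the whole model, of 23 and 24 libraries. From the 6, edgeR also called Myh7 without ACF 465 (4.35, adjusted p = 0.0123) and without ACF 490 (2.48, adjusted p = 0.0319), among 874 and 688 genes. It did not call Myh7 without 1 of the sham libraries (adjusted p from 0.153 to 0.566). Starting from the 5 libraries, the adjusted p was 1 without ACF 490, 0.359 without sham 464 and 0.279 without sham 467, so the call rests on each of these 3 libraries, while it was 0.00270 without ACF 465 and 0.00683 without sham 491. It was 0.313 when the C57 libraries were fitted alone (0.901 with 489) and 0.0659 when libraries were scaled to the cardiomyocyte markers. The log2 fold change stayed between 3.02 and 5.43 under the settings tried on the 5 libraries. RNA from a bulk preparation cannot tell more RNA per cell from more cells of a kind.

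The promoter of Myh7 is shown because its transcript carries the call, and that of Nppb, taken up next, because both are textbook targets of the cardiac stress programme. The sequences run from 250 bases before to 50 after the gene's start, 5′ to 3′ on the gene's strand, as RefSeq gives them on GRCm38.p6, while the counts were made on mm9. Capitals mark the letters CATTCC on either strand, the core of the MCAT element of muscle promoters, which in both promoters lay on the opposite strand and so reads GGAATG. The table holds 2 Myh7 promoters, of which 1 has these letters and is the one shown. The 1 Myh6 promoter has these letters as well. These letters are in 14.7% of the 32851 promoters of the table, so a match is a description of the sequence only. The Myh7 promoter lies at chr14:54994577-54994876 on the minus strand and the Nppb promoter at chr4:147985650-147985949 on the plus strand.
Myh7: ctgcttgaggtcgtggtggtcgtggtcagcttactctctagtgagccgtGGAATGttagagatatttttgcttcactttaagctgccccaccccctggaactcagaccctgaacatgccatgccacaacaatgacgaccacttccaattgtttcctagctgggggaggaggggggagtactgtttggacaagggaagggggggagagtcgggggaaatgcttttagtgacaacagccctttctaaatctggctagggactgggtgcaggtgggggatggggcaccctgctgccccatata
Nppb: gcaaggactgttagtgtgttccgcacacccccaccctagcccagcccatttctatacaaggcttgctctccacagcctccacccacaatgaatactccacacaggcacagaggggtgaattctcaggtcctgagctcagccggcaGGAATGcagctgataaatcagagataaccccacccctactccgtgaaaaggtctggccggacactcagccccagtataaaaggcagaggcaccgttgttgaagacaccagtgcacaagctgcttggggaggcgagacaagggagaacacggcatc

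Myh6, the alpha chain, stood at 28964, 4379.8 and 36469 CPM in the ACF libraries, against 22526, 21447 and 32879 CPM in the sham libraries, and its log2 fold change was -0.14 with 489 and 0.37 without it. Within a library, the share of Myh7 in the counts of Myh6 and Myh7 together does not depend on how much other RNA the library holds. This share was 1.02%, 2.51% and 3.60% in the ACF libraries, against 0.0963%, 0.0809% and 0.217% in the sham libraries, so the groups did not overlap and 489 lay between the other ACF libraries. The exact permutation test of 3 against 3 gave p = 0.1, the smallest it can give (adjusted over 22 pairs, 0.367), and without 489 the smallest possible p of 0.2. The mean share was 2.38% ± 1.30 in ACF and 0.132% ± 0.0747 in sham (SD, n = 3 each). Another 6 wild-type C57 libraries with a sham treatment label but no surgery in their titles had shares of 0.126% to 0.229%. The 2 genes are near-identical in stretches and RSEM divides the reads they share, so the lowest shares are uncertain.

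**Figure D2:**
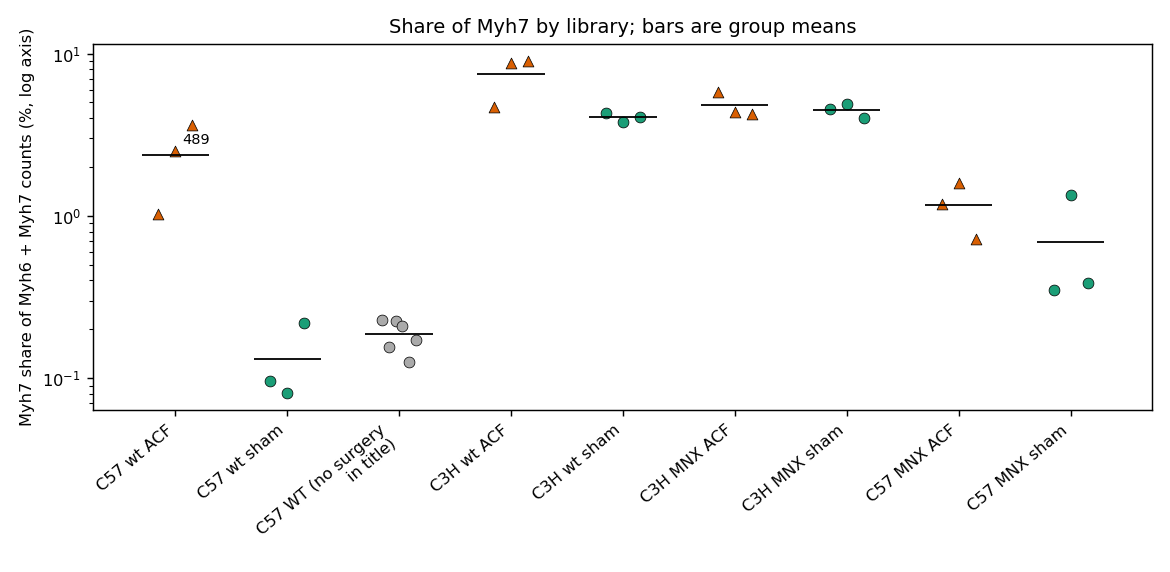
Share of Myh7 in the summed counts of Myh6 and Myh7 (%, log axis) in each library, with ACF libraries as triangles, sham libraries as green circles, the libraries without surgery in their titles as grey circles, and group means as bars. The 3 wild-type C57 ACF libraries lie at 1.02% to 3.60%, above the 3 sham libraries at 0.0809% to 0.217%.

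The other genotypes had other shares. In wild-type C3H the share was 4.69% to 9.05% in ACF and 3.78% to 4.32% in sham. In the MNX mice titled C3H it was 4.25% to 5.78% in ACF and 4.03% to 4.89% in sham, and in those titled C57 it was 0.716% to 1.59% in ACF and 0.348% to 1.34% in sham. The wild-type C57 sham libraries thus had the lowest shares of the 4 sham groups titled with a surgery. For Myh7 the ACF effect in wild-type C57 exceeded the mean effect in the other 3 genotypes by 3.35 on the log2 scale with all libraries (adjusted p = 0.591) and by 3.86 without 489 (adjusted p = 0.36), so edgeR called no difference between genotypes. The weighted limma fit did, at 4.10 (adjusted p = 0.00375). These differences compare ratios, and the wild-type C57 sham level was low. As shares, the medians in sham and ACF were 0.0963% and 2.51% in wild-type C57 and 4.08% and 8.78% in wild-type C3H. They were 4.55% and 4.39% in the MNX mice titled C3H, and 0.387% and 1.19% in those titled C57. Across all genes edgeR called 0 differences in the ACF effect against wild-type C3H, with 1359 of 13440 (10.1%) at an unadjusted p below 0.05 and 723 of 13544 (5.34%) without 489, and 0 against the mean of the other 3 genotypes, with 1125 (8.37%) and 342 (2.53%). DESeq2 called 3 and 1 genes in these 2 comparisons, and the weighted limma fit 210 and 4.

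Of 19 measured natriuretic peptide and fetal stress genes, 1 was called without 489, 17 had a positive log2 fold change, and the list's median was 0.43, against -0.0021 over all genes. In 12 of the 19 both remaining ACF libraries stood above all sham libraries, and 10.4% of all genes did so. With all 6 libraries 0 were called and 16 were positive, with a median of 0.38, and 5 of 19 had all 3 ACF libraries above all sham libraries, as did 4.11% of all genes. Nppb encodes B-type natriuretic peptide and was at 114, 47.5 and 192 CPM in the ACF libraries, against 62.3, 87.9 and 56.5 CPM in the sham libraries. ACF 465 and 490 were above the sham libraries and 489 below them all, and the log2 fold change was 0.78 with 489 and 1.17 ± 0.355 without (SE; adjusted p = 1). Nppa, the atrial natriuretic peptide gene, was at 17, 60.2 and 33 CPM in the ACF libraries, against 19.2, 40.02 and 11.5 CPM in the sham libraries, and the groups overlapped. Acta1, skeletal alpha-actin and another fetal isoform, was at 124, 11.9 and 122 CPM in the ACF libraries, against 134, 205 and 57.4 CPM in the sham libraries. It was low in 489, where cardiac transcripts were low in general, and its log2 fold change was -0.63 with that library and -0.10 without it. The fetal list was thus uneven, with Myh7 called and neither Nppa nor Acta1 separated between the groups.

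For the adult contractile apparatus edgeR called no gene. Of 20 sarcomere and Z-disc genes, 0 were called with or without 489. Without it 16 were positive with a median of 0.18, and with it 17 were negative with a median of -0.33 (0.16 when scaled to the cardiomyocyte markers). All 20 had their lowest level in 489. Mybpc3, cardiac myosin-binding protein C, was at 2745, 781 and 3249.7 CPM in the ACF libraries, against 2121, 2066 and 2096 CPM in the sham libraries. It stood above all sham libraries in 465 and 490 by 0.53 ± 0.192 on the log2 scale (SE; adjusted p = 1), where weighted limma called it (0.0427), and the log2 fold change with 489 was 0.11. Des, which encodes the intermediate filament desmin, was at 863, 115 and 959.8 CPM in the ACF libraries, against 869.8, 818 and 662 CPM in the sham libraries. Its groups overlapped with or without 489.

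Immediate early genes, the transcription factors and regulators that cells switch on first after a stimulus, had mostly positive differences, although edgeR called none of them. Without 489, 23 of 25 measured members had a positive log2 fold change, the median was 0.72, and 13 had an unadjusted p below 0.05 on the higher side (2.50% of all genes did). In 15 of 25 both remaining ACF libraries stood above all sham libraries, against 10.4% of all genes. With 489 all 25 were positive, the median was 1.56 and 22 had such a p (12.0% of all genes), and 15 had all 3 ACF libraries above all sham libraries (4.11% of all genes did). The list's mean level was 3.15, 4.97 and 3.50 log2 CPM in the ACF libraries, against 2.59, 2.46 and 2.88 in the sham libraries, so 489 was the highest and the ordering of the groups was the same without it. In the other 3 genotypes it ran from 2.61 to 3.82 in ACF and from 2.48 to 3.33 in sham libraries.

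The nuclear receptors of the NR4A family, which are induced within minutes to hours by stretch, hormones and calcium signals in many cells, come first. Nr4a3 was at 3.34, 5.03 and 14.7 CPM in the ACF libraries, against 1.64, 1.09 and 1.84 CPM in the sham libraries. All ACF libraries were above all sham libraries, and ACF 490 was far above the rest. The log2 fold change was 2.35 ± 0.556 with 489 (SE; adjusted p = 0.134) and 2.60 ± 0.563 without (adjusted p = 0.597), while DESeq2 called it both ways (adjusted p = 0.00994 and 0.0329) and the weighted limma fit without 489 (0.0455). Nr4a1 was at 33.7, 113 and 66.3 CPM in the ACF libraries, against 28.2, 12.2 and 20.9 CPM in the sham libraries, again without overlap. Its log2 fold change was 1.802 with 489 and 1.31 without (edgeR adjusted p = 0.134 and 1); DESeq2 called it with 489 (0.0125) and weighted limma without (0.0451).

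Junb, an AP-1 transcription factor subunit, was at 17.2, 69.4 and 17.4 CPM in the ACF libraries, against 7.2, 7.69 and 8.72 CPM in the sham libraries. ACF 465 and 490 were almost equal and above sham, and 489 was higher again. The log2 fold change was 2.14 ± 0.431 with 489 (SE; adjusted p = 0.134) and 1.15 ± 0.289 without (adjusted p = 0.736). The weighted limma fit called Junb with and without 489 (adjusted p = 0.0163 and 0.0146). Jund, another AP-1 subunit, was at 17.2, 36.1 and 15.3 CPM in the ACF libraries, against 8.79, 13.3 and 7.74 CPM in the sham libraries. Csrnp1, a nuclear protein induced by growth signals, was at 11.4, 29.6 and 12.3 CPM in the ACF libraries, against 7.84, 5.72 and 6.75 CPM in the sham libraries. For both, no ACF library reached down to the sham range. DESeq2 called both with 489 (adjusted p = 0.00714 and 0.00744), and weighted limma called Csrnp1 with and without it (0.0252 and 0.0215).

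**Figure D3:**
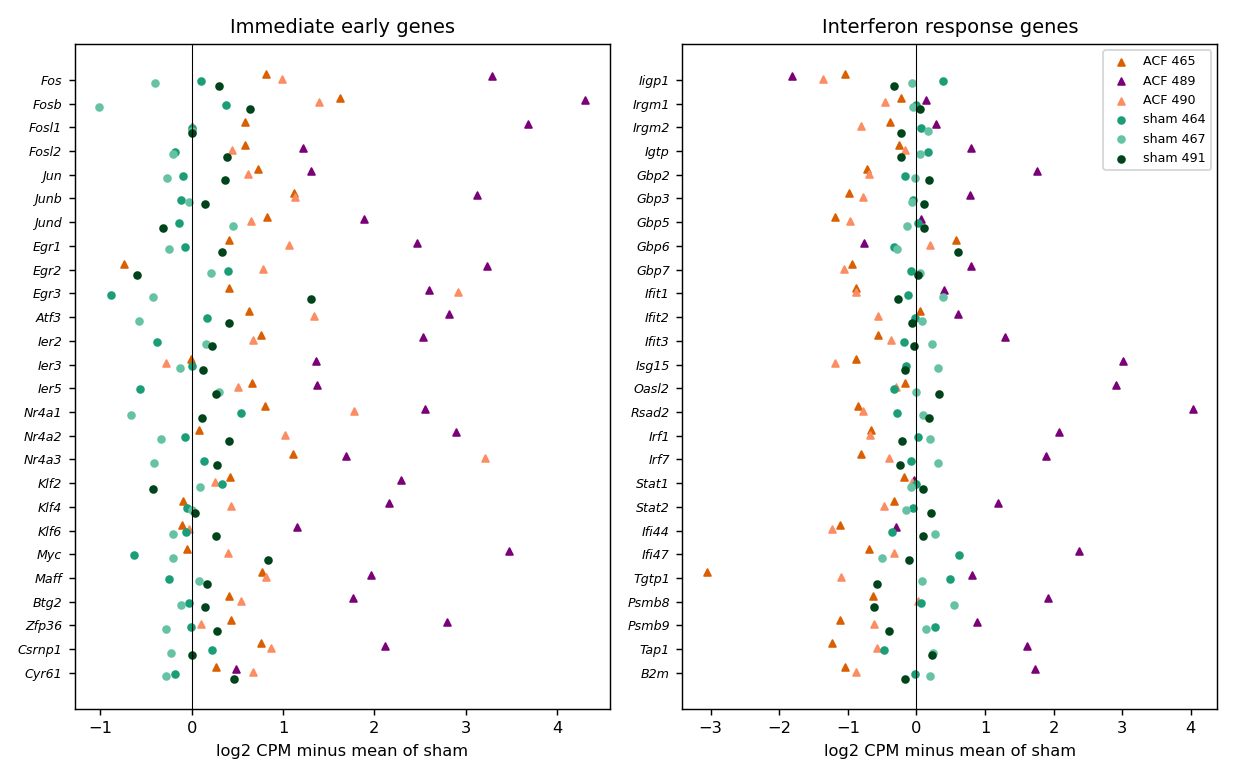
Log2 CPM of each immediate early gene and each interferon response gene in the 6 libraries, minus the mean of the 3 sham libraries, with ACF as triangles and sham as circles. ACF 465 and 490 lie above all sham libraries in 15 of 25 tested immediate early genes and below them in 19 of 26 interferon genes, while ACF 489 lies far to the right in most of both.

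The naming rule also took genes outside that list for the size of their difference. The rule itself required an unadjusted p below 0.05 without 489 and ACF 465 and 490 above all sham libraries. The separation of 465 and 490 in these genes is therefore no finding, and the weighted limma calls come from the same libraries. Apold1, a vascular gene of the early response type, was at 12.8, 15.2 and 25.3 CPM in the ACF libraries, against 8.84, 6.08 and 7.87 CPM in the sham libraries, with a log2 fold change of 1.23 with 489 and 1.35 ± 0.314 without (SE; adjusted p = 0.681). Sik1, a salt-inducible kinase that responds to cyclic AMP, was at 49, 34.2 and 56.7 CPM in the ACF libraries, against 28.4, 23.1 and 26.9 CPM in the sham libraries. Adamts1, a secreted protease that cuts proteoglycans, was at 36.9, 83.7 and 60.3 CPM in the ACF libraries, against 19.5, 22 and 31.1 CPM in the sham libraries. In all 3 the ACF libraries lay above every sham library, and the weighted limma fit called them with and without 489 (adjusted p = 0.0290 for each with 489 and 0.0243 for each without). Irs2, an insulin receptor substrate, was at 17.1, 3.25 and 17.4 CPM in the ACF libraries, against 5.35, 5.2 and 13.5 CPM in the sham libraries, so that 465 and 490 were above sham and 489 was below it; weighted limma called it both ways (adjusted p = 0.0306 and 0.0235). Lrg1, a secreted glycoprotein of the acute phase, was at 16.7, 17.6 and 18.6 CPM in the ACF libraries, against 8.79, 9.72 and 6.89 CPM in the sham libraries. Its log2 fold change was 1.06 with 489 and 1.07 without.

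Interferon response genes stood lower in ACF 465 and 490, and the picture depended on 489. Without 489, 25 of 26 members had a negative log2 fold change and the median was -0.70. edgeR called none, 2 had an unadjusted p below 0.05 on the lower side (1.57% of all genes did), and 19 had both ACF libraries below all sham libraries (10.1% of all genes did). With 489, 15 of 26 were positive, the median was 0.15, 0 were called and 1 had all 3 ACF libraries below all sham libraries (3.03% of all genes did). The list's mean level was 1.81, 3.65 and 1.92 log2 CPM in the ACF libraries, against 2.53, 2.63 and 2.50 in the sham libraries. The 3 sham libraries were close to each other, 465 and 490 were below them and 489 above. In the other genotypes it ran from 1.13 to 3.15 in ACF and from 1.98 to 4.11 in sham libraries.

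The member that was low in all 3 ACF libraries was Iigp1, an interferon-inducible GTPase, at 14.4, 8.47 and 11.6 CPM in the ACF libraries, against 39.3, 28.6 and 23.9 CPM in the sham libraries. It differed by -1.41 ± 0.439 on the log2 scale with 489 (SE; adjusted p = 0.183) and -1.22 ± 0.486 without (adjusted p = 1). The mean difference in the other 3 genotypes was -1.10, and the genotypes' difference was not called (adjusted p = 0.854 with 489 and 1 without). B2m, the invariant chain of MHC class I, was at 23.6, 162 and 26.4 CPM in the ACF libraries, against 48.1, 56.1 and 43.4 CPM in the sham libraries. The 2 other ACF libraries had lower values than all sham libraries and 489 a higher one, which gave 0.52 with 489 and -0.96 without. Isg15, a ubiquitin-like antiviral protein, was at 0.438, 7.98 and 0.331 CPM in the ACF libraries, against 0.794, 1.14 and 0.787 CPM in the sham libraries, with 1.66 and -1.23 in the same order. Tgtp1, another GTPase, was at 0.274, 5.46 and 1.37 CPM in the ACF libraries, against 4.34, 3.27 and 2.03 CPM in the sham libraries; it has a near-identical copy, so its counts are uncertain. Cxcl9, a chemokine induced by interferon gamma, was at 0.438, 0.245 and 0.0945 CPM in the ACF libraries, against 1.85, 1.92 and 0.918 CPM in the sham libraries. All ACF libraries were below the sham libraries, from few reads, and weighted limma called it with and without 489 (adjusted p = 0.0486 and 0.0451).

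Markers of other cell types in the same libraries were as follows. Macrophage markers summed to 71.2 and 75.9 CPM in ACF 465 and 490, against 78.6, 102 and 87.7 CPM in the sham libraries, with none of the 15 at 0 counts in any of the 6 libraries. Endothelial markers summed to 688 and 667 CPM in the same ACF libraries, against 664, 909 and 1006 CPM in the sham libraries, with none of 15 at 0. Without 489, 13 of 15 endothelial and 13 of 14 tested fibroblast markers had a negative log2 fold change, with medians of -0.32 and -0.29. With 489, 11 and 13 were positive, with medians of 0.41 and 0.81, and edgeR called 0 of either both ways. In 489 the macrophage markers summed to 605 CPM and the endothelial markers to 2372 CPM. The part of these cells in the interferon values was not tested.

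The promoters of B2m and Isg15 are shown because their genes were on the low side in 465 and 490 and are known interferon targets. Capitals mark GAAA followed by any 2 bases and GAAA again, the letters of an interferon-stimulated response element, searched on both strands. These letters were in 14 of 26 promoters of the list's genes (53.8%), against 3.44% of all promoters of the same length. Counted by gene, they were in 14 of the list's 23 genes with a promoter in the table (60.9%), against 3.99% of all genes with one. The B2m promoter, at chr2:122147437-122147736 of GRCm38.p6 on the plus strand, holds 1 match, and the Isg15 promoter, at chr4:156200769-156201068 on the minus strand, holds 3 overlapping ones.
B2m: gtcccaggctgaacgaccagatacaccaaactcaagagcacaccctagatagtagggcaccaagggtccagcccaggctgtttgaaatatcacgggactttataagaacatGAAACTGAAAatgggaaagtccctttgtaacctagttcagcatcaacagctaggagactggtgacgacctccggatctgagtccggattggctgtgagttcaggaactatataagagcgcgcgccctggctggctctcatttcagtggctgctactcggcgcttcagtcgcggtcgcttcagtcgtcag
Isg15: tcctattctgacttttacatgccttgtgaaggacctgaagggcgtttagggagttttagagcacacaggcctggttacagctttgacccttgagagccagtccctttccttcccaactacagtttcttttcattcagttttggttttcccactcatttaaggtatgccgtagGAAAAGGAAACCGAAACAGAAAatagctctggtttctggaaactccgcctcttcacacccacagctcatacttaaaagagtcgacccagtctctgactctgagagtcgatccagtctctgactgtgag

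edgeR called 0 of 32 members of the cytoskeleton, costamere and intercalated disc list with or without 489, while the other tools called the 3 genes named here. Of the 32, 23 were positive without 489 (median 0.14) and 10 had both ACF libraries above all sham libraries, against 10.4% of all genes. With 489, 15 were positive (median -0.04, or 1.00 when scaled to the cardiomyocyte markers) and 3 had all ACF libraries above all sham libraries, against 4.11% of all genes. Lmna encodes the lamins A and C of the nuclear lamina and was at 45.4, 70.5 and 50.3 CPM in the ACF libraries, against 32.4, 33.1 and 30.8 CPM in the sham libraries. Its groups did not overlap. The spread was small within sham, while ACF 489 stood well above the other ACF libraries. The log2 fold change was 0.79 ± 0.148 with 489 (SE; adjusted p = 0.134) and 0.59 ± 0.124 without (adjusted p = 0.597). DESeq2 called it with and without 489 (adjusted p = 0.000265 and 0.0270), and so did the weighted limma fit (0.0170 and 0.0146). Plec, a linker of intermediate filaments, was at 275, 242 and 280.3 CPM in the ACF libraries, against 169, 189.9 and 244 CPM in the sham libraries. Only ACF 489 lay within the sham range, and weighted limma called Plec with and without 489 (adjusted p = 0.0461 and 0.0373). Flnc, muscle filamin, was at 428, 65.2 and 447 CPM in the ACF libraries, against 233, 259 and 368 CPM in the sham libraries, and was low in 489. Weighted limma called it without 489 (adjusted p = 0.0479).

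**Figure D4:**
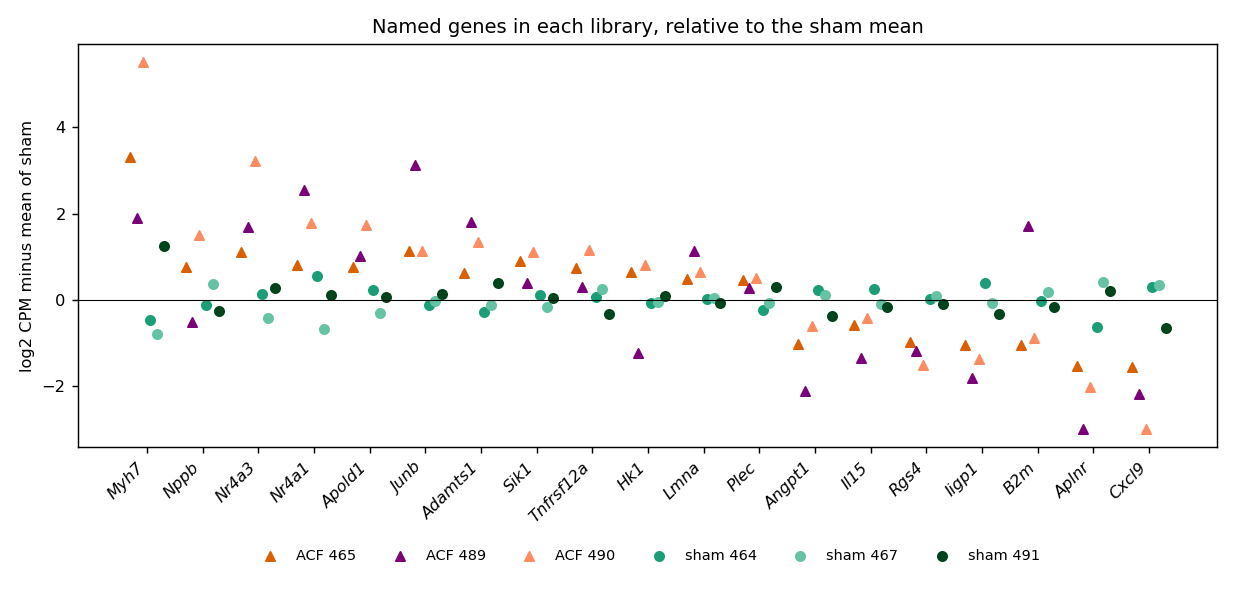
Log2 CPM of 19 named genes in each library, minus the mean of the 3 sham libraries, with ACF as triangles and sham as circles. Myh7 lies at 298, 113 and 1364 CPM in ACF and 17.4 to 71.6 CPM in sham, and 489 leaves the other ACF libraries in Nppb, Junb, Hk1 and B2m.

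Glucose use competes with fatty acid oxidation in the heart. edgeR called 0 of 30 glycolysis genes with or without 489, and weighted limma called Hk1 among them both ways. Of the 30, 22 were positive without 489 with a median of 0.10, and 4 had an unadjusted p below 0.05 on the higher side (2.50% of all genes did) and 1 on the lower side (1.57% did). With 489, 23 were negative and the median was -0.33, or 0.26 when scaled to the cardiomyocyte markers. Hk1, the hexokinase that starts glycolysis and that dominates in fetal and many other tissues, was at 162, 44.2 and 181 CPM in the ACF libraries, against 99.6, 100.5 and 112 CPM in the sham libraries. ACF 465 and 490 were well above a tight sham group, and 489 was below it. The log2 fold change was 0.31 ± 0.32 with 489 (SE; edgeR adjusted p = 0.602) and 0.74 ± 0.18 without (adjusted p = 0.709), and the weighted limma fit called it at 0.73 (adjusted p = 0.0155) and 0.77 (adjusted p = 0.00252). The share of Hk2, the insulin-responsive muscle hexokinase, in Hk1 and Hk2 together was 69.4%, 48.4% and 68.2% in the ACF libraries, against 74.0%, 71.8% and 76.7% in the sham libraries. Pfkp, the platelet form of phosphofructokinase, was at 38.5, 26.9 and 44 CPM in the ACF libraries, against 27, 29.8 and 25.6 CPM in the sham libraries, and its share beside the muscle form Pfkm was 5.49%, 17.2% and 5.78% in ACF, against 3.76%, 4.43% and 4.01% in sham. Neither pair overlapped. Of 22 isoform pairs 6 did not overlap, in either direction, and each had the smallest possible exact p of 0.1 (adjusted, 0.367). Libraries in random order would leave 10% of pairs without overlap, and the pairs are not independent, since some share a gene. Acta2 beside Actc1 and Eno1 beside Eno3 were also separated, both higher in ACF. The values of 489, which held fewer cardiac transcripts, were the most distant in the pairs of Hk2, Pfkp, Acta2 and Eno1.

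Fatty acid uptake and oxidation genes had a median of 0.05 without 489 (18 of 26 positive; -0.02 when scaled to the cardiomyocyte markers) and -0.45 with it (25 of 26 negative), and 0 were called. TCA cycle genes had 0.04 (13 of 20 positive; -0.03 with that scaling) and -0.46 (all 20 negative). Respiratory chain genes encoded in the nucleus were mostly negative both ways. For complex I, 29 of 37 were negative without 489 (median -0.16, or 0.03 without sham 464) and all 37 with it (median -0.62, or 0.02 with that scaling). For complexes III to V, 31 of 35 were negative without 489 (median -0.15, or 0.04 without sham 464) and all 35 with it (median -0.63, or 0.04 with that scaling). In both lists 0 were called, and 0 had their ACF libraries all above or all below the sham libraries, with or without 489. The complex I mean level was 6.59, 4.38 and 6.77 log2 CPM in the ACF libraries, against 7.17, 7.03 and 6.12 in the sham libraries. Sham 491 was thus below ACF 465 and 490, and the sham libraries differed among themselves by more than the groups did without 489. Ndufa4, a small subunit of the chain, showed this at 226, 45.5 and 229 CPM in the ACF libraries, against 407, 349 and 161 CPM in the sham libraries. Cox7a1, a heart and muscle subunit of complex IV, was at 137, 20.2 and 150.5 CPM in the ACF libraries, against 273, 243 and 95.4 CPM in the sham libraries.

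Of the transcripts encoded by the mitochondrial genome, 3 were in the table under a matched symbol. Cytb of complex III was at 90049, 145942 and 53609 CPM in the ACF libraries, against 90207, 104367 and 111436 CPM in the sham libraries. Cox2 of complex IV was at 46606, 72834 and 35899.8 CPM in the ACF libraries, against 51429, 59616 and 60342 CPM in the sham libraries. Atpase6 of complex V was at 56648, 86459 and 32728 CPM in the ACF libraries, against 63287, 72274 and 77339 CPM in the sham libraries. In each, 489 was the highest library and 490 the lowest. All 3 put the libraries in the same order, so they are not separate observations. Without 489 all 3 had both ACF libraries below all sham libraries (10.1% of all genes did), although for Cytb ACF 465 was nearly level with sham 464. Their log2 fold changes were -0.49, -0.45 and -0.65, and edgeR called 0. With 489 they were -0.08, -0.14 and -0.28, and 1.90, 1.76 and 1.67 when scaled to the cardiomyocyte markers. Nuclear copies of mitochondrial genes may share reads with them.

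edgeR called no calcium handling or ion channel gene with or without 489. Of 16 calcium handling genes 10 were positive without 489 (median 0.08, or -0.02 when scaled to the cardiomyocyte markers) and 14 negative with it (median -0.32, or 0.25 with that scaling). Without 489, 5 of the 16 had both ACF libraries above all sham libraries (10.4% of all genes did) and 1 below (10.1% did). Atp2a2, the calcium pump of the sarcoplasmic reticulum, was at 13666, 1029 and 12295 CPM in the ACF libraries, against 13008, 13022 and 12841 CPM in the sham libraries. Apart from 489, its values lay within a narrow range common to both groups. Slc8a1, the sodium-calcium exchanger, was at 704.9, 114 and 924 CPM in the ACF libraries, against 447, 439 and 659 CPM in the sham libraries, a log2 fold change of 0.68 ± 0.236 without 489 (SE; edgeR adjusted p = 1) and 0.17 with it, and weighted limma called it without 489 (0.0362). Of 21 potassium and sodium channel genes 15 were positive without 489 (median 0.10) and 20 negative with it (median -0.28, or 0.26 when scaled to the cardiomyocyte markers). Without 489, 5 of the 21 had both ACF libraries above all sham libraries (10.4% of all genes did) and 2 below (10.1% did). With it 0 had all 3 above (4.11% of all genes did) and 2 had all 3 below (3.03% did). Scn4b, a beta subunit of sodium channels, was at 37.1, 2.58 and 33.5 CPM in the ACF libraries, against 54.9, 43.3 and 48.1 CPM in the sham libraries, below all sham libraries in every ACF library. Kcne1, a potassium channel subunit, was at 6.89, 1.1 and 4.73 CPM in the ACF libraries, against 3.23, 3.64 and 1.64 CPM in the sham libraries; 465 and 490 were above sham. Rgs4, which switches off G-protein signals, was at 3.45, 3.01 and 2.36 CPM in the ACF libraries, against 6.99, 7.33 and 6.43 CPM in the sham libraries. All 3 ACF libraries were low and close together, and the log2 fold change was -1.24 with 489 and -1.24 ± 0.443 without (SE; edgeR adjusted p = 1). Weighted limma called it both ways (adjusted p = 0.0486 and 0.0451).

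Stress and growth-arrest genes gave further separated members without a call by edgeR. In the integrated stress response list 14 of 21 were positive without 489 (median 0.10) and 17 with it (median 0.77). Atf4, its central transcription factor, was at 35.2, 61 and 40.02 CPM in the ACF libraries, against 33.7, 25.9 and 27.9 CPM in the sham libraries. Ppp1r15a, which reverses the block of translation, was at 21.6, 35.3 and 28.9 CPM in the ACF libraries, against 16.8, 13 and 20.3 CPM in the sham libraries. Ddit3, the CHOP factor downstream of Atf4, was at 6.68, 19.8 and 10.6 CPM in the ACF libraries, against 6.41, 5.41 and 5.64 CPM in the sham libraries. In these 3 the ACF libraries lay above all sham libraries, with 489 highest, and weighted limma called Ppp1r15a both ways (adjusted p = 0.0499 and 0.0419). Gadd45b and Gadd45g, growth-arrest and DNA-damage genes, were also separated: Gadd45b was at 3.06, 5.64 and 4.87 CPM in the ACF libraries, against 2.59, 1.14 and 2.23 CPM in the sham libraries, and Gadd45g was at 3.17, 8.96 and 4.58 CPM in the ACF libraries, against 2.33, 2.13 and 1.9 CPM in the sham libraries. Weighted limma called Gadd45b without 489 (adjusted p = 0.0480) and DESeq2 called Gadd45g with it (0.0487). Nfe2l2, the NRF2 factor of the antioxidant response, was at 43.6, 61.6 and 49.5 CPM in the ACF libraries, against 39.6, 38.5 and 40.5 CPM in the sham libraries, with every ACF library above sham by a small margin. Heat shock proteins had a median of 0.08 without 489 and -0.27 with it, which scaling to the cardiomyocyte markers turned to -0.0062 and 0.64. ER chaperones had 0.0048 and 0.26, and the first was -0.12 with that scaling. In both lists 0 were called.

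A pair of genes of muscle mass and remodelling lay on opposite sides. Tnfrsf12a, the receptor Fn14 of the cytokine TWEAK, was at 17.7, 12.9 and 23.9 CPM in the ACF libraries, against 11.1, 12.6 and 8.39 CPM in the sham libraries. Fbxo32, the atrogin-1 ubiquitin ligase of muscle atrophy, was at 121, 13.7 and 95.2 CPM in the ACF libraries, against 122, 129 and 215 CPM in the sham libraries. The first was above and the second below every sham library in all 3 ACF libraries, with log2 fold changes of 0.76 and -1.02 with 489 (edgeR adjusted p = 0.226 and 0.316) and of 0.97 ± 0.287 and -0.50 ± 0.285 without it (SE; adjusted p = 1 and 1). The margin was narrow between ACF 489 and sham 467 for Tnfrsf12a, and between ACF 465 and sham 464 for Fbxo32. For Fbxo32, ACF 489 was far below and sham 491 far above the rest. Per1, a clock gene that also responds to glucocorticoids, was at 38.4, 69 and 35.5 CPM in the ACF libraries, against 24.3, 19.2 and 29.6 CPM in the sham libraries. Fkbp5, a glucocorticoid-induced chaperone, was at 6.68, 31.5 and 15 CPM in the ACF libraries, against 4.34, 5.35 and 6.1 CPM in the sham libraries. In both, every ACF library was above every sham library. In the glucocorticoid list 13 of 17 were positive both ways, with medians of 0.23 without 489 and 0.68 with it.

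Matrix genes had other signs with and without 489. Collagens and structural matrix had 26 of 30 positive with 489 (median 0.81) and 7 of 30 without it (median -0.16, or 0.08 without sham 491 as well). Dcn, the small proteoglycan decorin, was at 96.5, 586 and 99.9 CPM in the ACF libraries, against 111, 155 and 133 CPM in the sham libraries. Matricellular proteins and proteases had 26 of 28 positive with 489 (median 1.39) and 18 without (median 0.19). Thbs1, the matricellular thrombospondin-1, was at 9.69, 585 and 24.1 CPM in the ACF libraries, against 3.65, 4.21 and 9.12 CPM in the sham libraries. All ACF libraries were above the sham libraries, but 489 was far above the other ACF libraries. Its groups differed by 5.20 on the log2 scale with 489 and 1.61 ± 0.607 without (SE; adjusted p = 1). Spp1, osteopontin, was at 0.219, 24.2 and 3.92 CPM in the ACF libraries, against 0.159, 0.104 and 0.131 CPM in the sham libraries, so that ACF 490 and 489 stood out and 465 did not. Adam8, a membrane protease of leukocytes, was at 0.219, 19.3 and 1.46 CPM in the ACF libraries, against 0.159, 0.156 and 0.262 CPM in the sham libraries, and 465 lay within the sham range. DESeq2 called Thbs1, Spp1 and Adam8 with 489 (adjusted p = 0.000192, 0.00284 and 0.000485) and none of them without it. The fibroblast markers summed to 473, 2871 and 468 CPM in the ACF libraries, against 437, 669 and 685 CPM in the sham libraries, and none was at 0 in 489. Their part in the matrix values was not tested.

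In the acute phase and IL-6 family list all 20 members were positive with 489 (median 1.29) and 15 without it (median 0.32). Serpina3n, a secreted protease inhibitor, was at 6.24, 77.8 and 13.6 CPM in the ACF libraries, against 2.33, 3.01 and 5.84 CPM in the sham libraries. Lcn2, the iron-binding lipocalin-2, was at 2.41, 35.3 and 8.08 CPM in the ACF libraries, against 1.43, 1.66 and 0.984 CPM in the sham libraries. Cebpb, a transcription factor of this response, was at 6.79, 9.63 and 4.11 CPM in the ACF libraries, against 2.65, 3.95 and 3.54 CPM in the sham libraries. Each had all ACF libraries above all sham libraries and none was called by edgeR; DESeq2 called Serpina3n and Lcn2 with 489 (adjusted p = 0.0231 for each). Chemokines and cytokines had 16 of 19 positive with 489 (median 1.75) and 9 without (median -0.02). Ptgs2, the inducible prostaglandin synthase, was at 0.657, 17.9 and 0.756 CPM in the ACF libraries, against 0.212, 0.208 and 0.525 CPM in the sham libraries. The neutrophil markers summed to 4.49, 166 and 31.9 CPM in the ACF libraries, against 5.72, 4.94 and 3.21 CPM in the sham libraries. In 490 most of this sum came from Ltf (21.9 CPM) and Lcn2 (8.08 CPM), and Lcn2 is in both lists. Their part in these values was not tested.

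Angiogenic ligands and receptors had 17 of 23 negative members without 489 (median -0.12) and 10 with it (median 0.11, or -0.01 without 490). Angpt1, the angiopoietin that steadies vessels, was at 16.9, 7.91 and 22.5 CPM in the ACF libraries, against 40.5, 37.5 and 26.7 CPM in the sham libraries. All ACF libraries were below all sham libraries, with a log2 fold change of -1.14 with 489 and -0.81 ± 0.297 without (SE; edgeR adjusted p = 1). The weighted limma fit called it both ways (adjusted p = 0.0307 and 0.0359). Aplnr, the apelin receptor, was at 6.29, 2.21 and 4.44 CPM in the ACF libraries, against 11.7, 24.4 and 21.2 CPM in the sham libraries, again with every ACF library below sham. Cell cycle genes had 16 of 18 positive with 489 (median 0.82) and 2 of 18 without it (median -0.24), and 0 were called.

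Of the 10 genes that the naming rule took from the lower side, Iigp1, Angpt1 and Atpase6 are given above. The rule required both ACF libraries other than 489 below all sham libraries, so that part of the separation was set by the choice. Weighted limma calls of these genes come from the same libraries. Slc40a1, the iron exporter ferroportin, was at 9.74, 5.21 and 6.9 CPM in the ACF libraries, against 12.5, 12.5 and 17.5 CPM in the sham libraries. Il15, interleukin-15, was at 10.6, 6.26 and 11.9 CPM in the ACF libraries, against 19.1, 14.9 and 14.2 CPM in the sham libraries. In both genes every ACF library was below every sham library. Osgepl1, a mitochondrial tRNA-modifying protein, was at 24.8, 5.15 and 24.3 CPM in the ACF libraries, against 42.3, 37.9 and 27.1 CPM in the sham libraries. Hbxip, a part of the Ragulator complex on lysosomes, was at 8.21, 5.77 and 8.65 CPM in the ACF libraries, against 16.5, 11.4 and 9.12 CPM in the sham libraries. The same held for both of these. In Aspn, Steap4 and Mtmr14 the 2 other ACF libraries were below sham and 489 was not: Aspn, the matrix protein asporin, was at 5.42, 10.1 and 5.95 CPM in the ACF libraries, against 9.11, 11.6 and 12.9 CPM in the sham libraries. Steap4, a metalloreductase, was at 12.2, 20.1 and 12 CPM in the ACF libraries, against 16.9, 21.5 and 26.2 CPM in the sham libraries. Mtmr14, a muscle phosphoinositide phosphatase, was at 7.77, 9.32 and 5.53 CPM in the ACF libraries, against 9.27, 10.1 and 9.31 CPM in the sham libraries. The log2 fold changes of these 7 genes lay between -0.98 and -0.34 with 489 (edgeR adjusted p from 0.181 to 0.394) and between -0.96 and -0.50 without it (adjusted p = 1 for each). Weighted limma called Osgepl1 with and without 489 (adjusted p = 0.0313 and 0.0215) and Steap4 without it (0.0498).

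**Figure D5:**
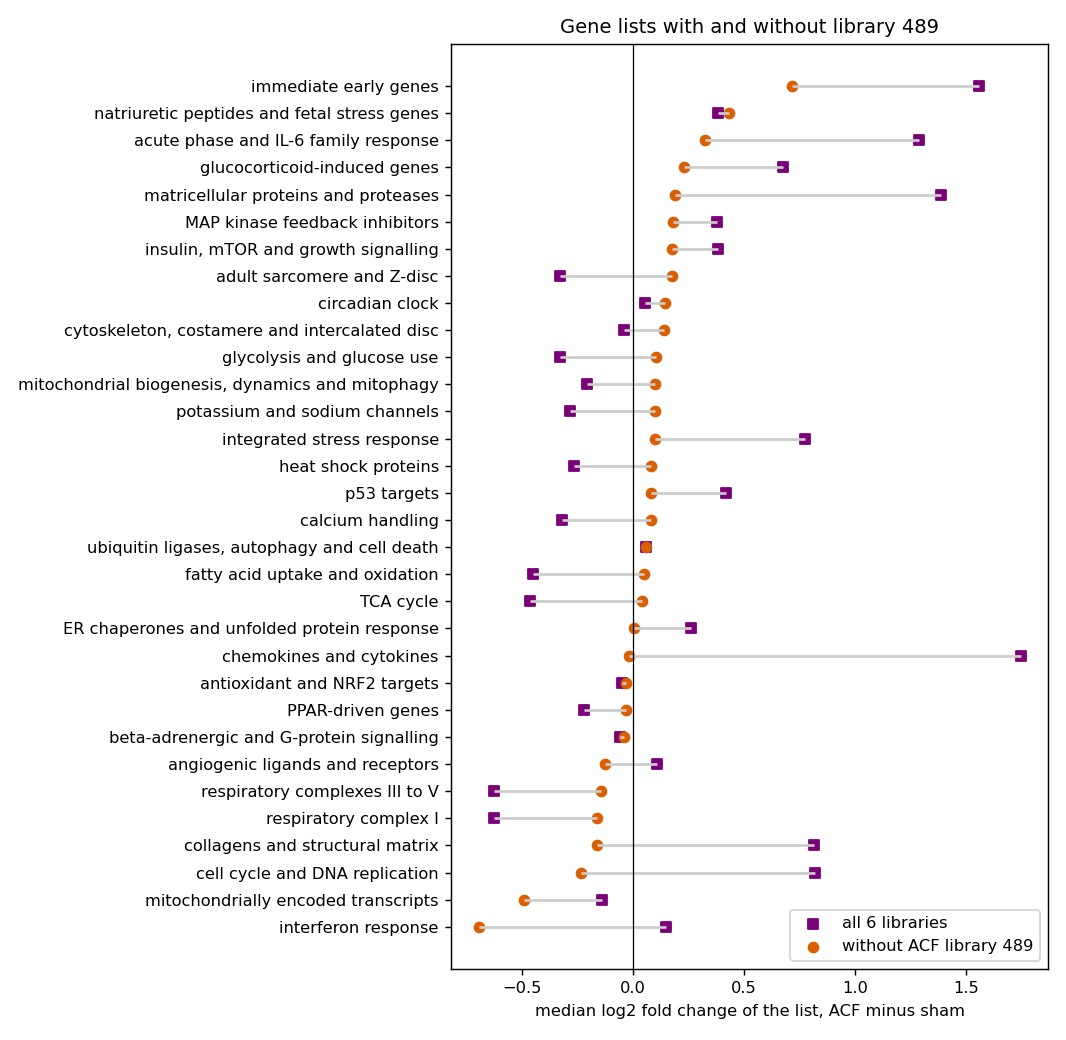
Median log2 fold change (ACF minus sham) of 32 gene lists with all 6 libraries (squares) and without ACF library 489 (circles), sorted by the value without it. Immediate early genes lie to the right both ways (1.56 and 0.72), and interferon response genes lie at 0.15 with 489 and at -0.70 without it.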

How the data were processed

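Messenger RNA was sequenced on an Illumina instrument. The deposited table gives RSEM-type expected counts, unnormalized, for 30743 gene symbols, and 13.9% of its values were not whole. Tools named in the submitters' processing notes are CASAVA (1.8.2), Bowtie and RSEM (1.2.0), with build mm9. The labels' protocols also describe a provider's mapping algorithm, so which made the table is not settled. The table had 0 rows that name no gene. Expected counts were rounded and tested in R 4.3.3 with edgeR 4.0.16 (quasi-likelihood F test, TMM, edgeR's filter by group, Benjamini-Hochberg adjustment, threshold 0.05) in 1 model of 24 libraries in 8 groups, and again without ACF library 489. The SE is the log2 fold change divided by the square root of F. Levels are CPM on TMM-scaled totals, and log2 CPM has a prior count of 2. Isoform shares were compared by two-sided exact permutation. Libraries of a group differed beyond sampling noise (chi-square of at least 11.8 per degree of freedom), so none was counted as a duplicate.

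The members, 32 pathway and 12 marker lists and 22 isoform pairs were chosen with earlier results of these data known; 17 listed symbols were not matched. Named genes were those past the threshold, the 10 highest and 10 lowest log2 fold changes without 489 with an unadjusted p below 0.05, a mean log2 CPM of at least 3, both ACF libraries on 1 side of sham and the same sign with 489, up to 4 members per list by p, and a fixed set (Nppa, Nppb, Myh6, Myh7, Acta1, Atp2a2, Des, mitochondrial transcripts). Predicted symbols were skipped, and some genes that the rule takes are not described. A low p and a separation of ACF and sham in named genes thus partly follow from how they were chosen. Other settings were DESeq2 1.42.0, its size factors, no filter, robust dispersion, limma 3.58.1 with sample weights, the C57 libraries alone, scaling to cardiomyocyte markers and leaving out each library. List medians under these settings were added after seeing the data. On simulated counts the 3 against 3 test recovered 8% of 1.5-fold, 32% of 2-fold and 82% of 4-fold changes, with 2 false calls. The 2 against 3 test recovered 8%, 58% and 90%, with 6 false calls. Changes were placed only in genes with a mean above 1 CPM. No simulated library had a make-up unlike the rest, as 489 has. One isoform pair is counted but not reported here.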

Additional observations from a re-analysis of the deposited data

How the results depend on the processing

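With all 6 libraries the count of genes past the threshold was 0, and it was 176 with DESeq2, 96 with limma sample weights, 8578 when scaled to the cardiomyocyte markers, and 0 to 874 when 1 library was left out (874 without ACF 465, 688 without ACF 490). Without 489 the count was 1, and it was 5 with DESeq2, 187 with limma sample weights, 0 with the C57 libraries alone, 0 when scaled to the cardiomyocyte markers, and 0 to 2 when another library was left out. For the difference from wild-type C3H DESeq2 called 3 genes and weighted limma 210, and for that from the other 3 genotypes 1 and 4; edgeR called 0 for both. Leaving out 1 ACF library of the 5 assumes that the lone one varies like the other groups. DESeq2's size factors, no filter and robust dispersion left these counts at 0 and 1, and the cause of the differences was not tested.

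Signs of the log2 fold change turned for these genes, including some with large differences such as Isg15. With all 6 libraries, weighted limma gave -0.32 for Nppa, 0.48 for Myh6, -1.05 for B2m, -1.30 for Isg15, -0.47 for Dcn and 0.11 for Des. Scaling to the cardiomyocyte markers gave 0.21 for Myh6, 1.196 for Aspn, 1.27 for Steap4, 0.22 for Slc40a1, 1.67 for Atpase6, 0.59 for Hbxip, 1.40 for Mtmr14, 0.41 for Il15, 0.26 for Rgs4, 1.90 for Cytb, 1.76 for Cox2, 2.00 for Tgtp1 and 0.12 for Des. Leaving out 1 library gave -0.62 to 0.37 for Myh6, -0.65 to 0.0014 for Atpase6, -0.25 to 0.53 for Mybpc3, -0.33 to 0.68 for Slc8a1, -0.94 to 0.018 for Atp2a2, -0.017 to 0.74 for Hk1, -0.49 to 0.20 for Cytb, -0.45 to 0.053 for Cox2, -0.96 to 0.92 for B2m, -1.91 to 0.052 for Tgtp1, -1.23 to 2.18 for Isg15, -0.42 to 1.35 for Dcn, -0.22 to 0.63 for Flnc and -0.68 to 0.23 for Des. Without 489, Nppa was -0.27 with weighted limma and ran from -0.48 to 0.72 with another library left out (-0.041 without sham 464, -0.23 without sham 491), Acta1 from -0.46 to 0.38, Ltf from -1.38 to 6.21 (negative without 490) and Atp2a2 from -0.057 to 0.078. Atp2a2 was -0.0012 with the C57 libraries alone and -0.075 when scaled to the cardiomyocyte markers. The share of Nppb beside Nppa was 10.1 percentage points higher in ACF without 489, and lower by 3.89 with it.

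Without 489, the immediate early median stayed between 0.56 and 0.82 and the interferon median between -0.87 and -0.69 under the settings tried. No paired analysis was possible because the groups share no replicate number.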

Other observations

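ACF library 490 held Ltf at a level near that of 489. Ltf, which encodes the iron-binding lactoferrin of neutrophil granules and of secretory epithelia, was at 0.109, 18.0 and 21.9 CPM in the ACF libraries, against 0.212, 0.572 and 0.0656 CPM in the sham libraries. In 489 other neutrophil transcripts were high as well, with S100a8 at 11.1 CPM, S100a9 at 21.2 CPM and Ngp at 20.9 CPM. In 490 they were at 0.0945, 0.236 and 0.0473 CPM, within or below the range of the libraries other than 489, while Ltf had 464 counts there. Lcn2, another gene of the neutrophil list, was at 2.41, 35.3 and 8.08 CPM in the ACF libraries, against 1.43, 1.66 and 0.984 CPM in the sham libraries, so that 490 was above sham for it too.

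Sham library 491 differed from the other sham libraries in abundant cardiac transcripts. Mb, myoglobin, was at 4565, 623 and 5034 CPM in the ACF libraries, against 6362, 5787 and 3484 CPM in the sham libraries. Ttn, the giant spring protein titin, was at 8690.4, 905 and 7916 CPM in the ACF libraries, against 5184, 5753 and 11246 CPM in the sham libraries.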
